A study of Mus musculus with 8 samples.

Results

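The type I interferon response genes are the antiviral effectors, sensors and transcription factors that cells switch on when interferon reaches their surface. A list of 39 such genes was followed in the mouse retinal pigment epithelium (RPE) and choroid, the pigmented layer behind the photoreceptors and the vascular layer that nourishes it. Members were chosen by name, with earlier results of these data known, so the list is not a blind sample of genes. Each was read from a probe set, a group of short oligonucleotides on the array. That probe set was annotated to the gene alone and had the highest mean log2 intensity over the 8 arrays. Of the 39 genes, 37 had such a probe set, among 18193 genes with one on the array. The probe set for Isg15, a ubiquitin-like protein, also named another gene, and Ifi44 had none of its own in the annotation used, so neither was analysed here.

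The study asked how the transcriptome of the RPE/choroid differs between aged and young adult animals. The tissue came from male C57BL/6 mice, which were 26 months old in the old group and 4 months old in the young group. Each group had 4 Affymetrix Mouse 430 2.0 arrays. Every array carried the combined RNA of 4 RPE/choroids taken from 2 animals, and a replicate is therefore 1 such pool. The labels name no treatment and no genetic change.

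Cells make type I interferons (interferon-alpha and interferon-beta) when sensors in the cytosol or in endosomes meet foreign or misplaced nucleic acid. The interferon binds the receptor pair IFNAR1 and IFNAR2, the kinases JAK1 and TYK2 are activated, and a complex that holds STAT2 and IRF9 enters the nucleus and binds a short DNA element in front of the response genes. Interferon-gamma acts through another receptor, and many response genes answer to both.

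All 37 measured interferon response genes had a higher mean log2 intensity in the old RPE/choroid, and for 21 of them the difference passed an adjusted p of 0.05 in limma (Benjamini-Hochberg over all probe sets), whereas 11.8% of all genes were higher by the same rule. None was lower, against 9.56% of all genes, and at an unadjusted p under 0.05 none was lower and 28 were higher, against 18.9% and 18.5% of all genes. The median log2 fold change of the 37 genes was 0.41, with the middle of the list between 0.19 and 0.62, and that of all genes was -0.02, with 8464 of 18193 genes above 0. RPE/choroid is a mixed tissue, and in such samples a change in the number of cells of a type and a change in RNA per cell cannot be told apart. Differences were mostly small, since 2 genes, Ifi204 and Ifit1, passed a fold over 2 at an adjusted p under 0.01. The same rule called 1.13% of all genes higher and 0.0989% lower. Every old array lay above every young array for 23 genes, against 15.8% of all genes, and every old array lay below every young array for none, against 13.7% of all genes. Of these 23 genes, 20 were among the 21 that rose and the other 3 were Dhx58, Irf1 and Ifi35.

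**Figure D1:**
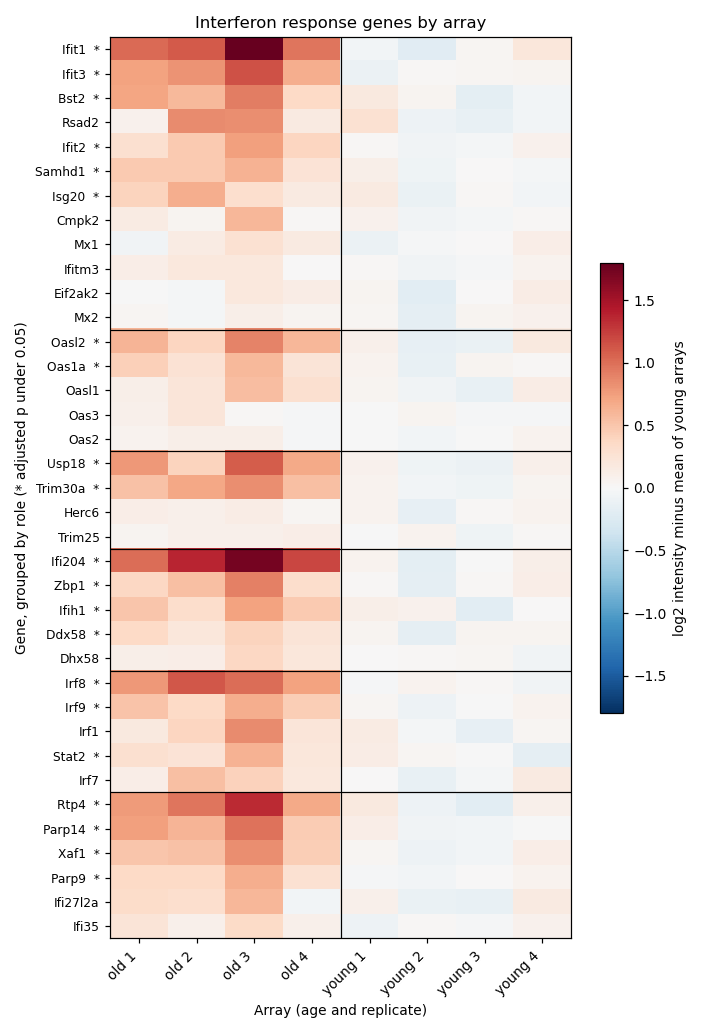
Log2 intensity of the 37 interferon response genes (rows, grouped by role) in the 4 old and 4 young arrays (columns), each minus the mean of the young arrays; an asterisk marks an adjusted p under 0.05. The old columns are mostly red, most deeply in old replicate 3, which was the highest old array for 30 of the 37 genes. Some old values lay below the young mean, such as that of Ifi27l2a in old replicate 4.

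The element bound by the complex with STAT2 and IRF9 and by other IRF proteins was looked for as the letters GAAANNGAAA on either strand in RefSeq promoter windows (GRCm38.p6), which run from 250 bases before to 50 bases after a gene's start. It was present in 3.44% of 32851 windows of the mouse genome. Promoter windows were given for 28 of the 39 genes, some with more than 1 window, and 13 of these 28 genes held the letters in at least 1 window. The stretches below carry it before the start of 5 members that rose, and Irf1 is shown for a different element, TTCNNNGAA, the interferon-gamma activated site, which 8.3% of all windows hold. Capitals mark the matching letters, and matches on the other strand read TTTCNNTTTC.
Ifit1 (chr19:34640755-34640843, plus strand): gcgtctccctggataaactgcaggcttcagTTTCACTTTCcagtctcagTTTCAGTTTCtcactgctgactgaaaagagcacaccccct
Ifit3 (chr19:34583343-34583446, plus strand): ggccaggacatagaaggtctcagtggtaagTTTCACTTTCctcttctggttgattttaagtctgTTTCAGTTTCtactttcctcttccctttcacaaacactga
Bst2 (chr8:71537557-71537632, minus strand): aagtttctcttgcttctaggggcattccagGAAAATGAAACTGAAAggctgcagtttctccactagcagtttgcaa
Oas1a (chr5:120907526-120907575, minus strand): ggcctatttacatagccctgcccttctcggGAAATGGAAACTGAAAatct
Stat2 (chr10:128270248-128270315, plus strand): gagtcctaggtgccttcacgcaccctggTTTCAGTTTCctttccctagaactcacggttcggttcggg
Irf1 (chr11:53769894-53769962, plus strand): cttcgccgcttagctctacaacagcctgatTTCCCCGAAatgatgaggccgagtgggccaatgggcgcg
Ifit1 and Ifit3 each held 2 separate matches, whereas in Bst2 and Oas1a a pair of matches overlapped and shared 4 letters of the run. In Stat2 the single match lay near the far end of its window. Among the 26 measured members with a window, 8 of the 12 with the element rose, and 7 of the 14 without it rose, with median log2 fold changes of 0.43 and 0.39. Of 512 other measured genes with the element, 14.84% were higher in old animals and 8.2% lower, against 11.61% and 9.67% of 13914 other genes without it. Only the 39 members were left out of these other genes, so further interferon-induced genes were not removed from them. These are counts of letters in a window and say nothing of binding.

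Among the 12 effectors that act on the viral life cycle, 6 rose and the other 6 did not pass the test. Ifit1, which holds back translation of viral RNA by binding its 5′ end, had intensities of 941, 995, 1642 and 905 in old replicates 1 to 4, against 448, 401, 476 and 535 in young replicates 1 to 4. The lowest old array was well above the highest young one, and old replicate 3 stood apart from the other old arrays. Its log2 fold change was 1.23 (SE 0.18, adjusted p = 0.00231 by limma), and 1.03 without old replicate 3 (adjusted p = 0.000651). Ifit1 and the sensor Ifi204 are also on the list of changed genes that the study drew from these same arrays, so that list is no independent evidence of their direction.

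Ifit3, which forms a complex with Ifit1-family proteins, read 2769, 2933, 3711 and 2631 in old animals and 1558, 1702, 1715 and 1737 in young animals. All old arrays lay above all young arrays, and the young arrays differed little among themselves. The log2 fold change was 0.83 (SE 0.10, adjusted p = 0.000928). Ifit2, the neighbour of Ifit3 on chromosome 19 and a member of the same family of RNA-binding proteins, had a log2 fold change of 0.47 (SE 0.09, adjusted p = 0.00869). Bst2 (tetherin), which holds budding virions at the cell surface, averaged 1435 ± 235 in old and 912 ± 93.1 in young arrays (SD, n = 4 each), a log2 fold change of 0.65 (SE 0.12, adjusted p = 0.00741). Samhd1, which depletes the deoxynucleotides that reverse transcription needs, averaged 1389 ± 145 in old and 1010.2 ± 54.3 in young arrays (SD, n = 4 each), a log2 fold change of 0.46 (SE 0.08, adjusted p = 0.00618).

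Isg20, an exonuclease that degrades RNA, was the only called gene whose ages overlapped, with 250.3 in old replicate 4 and 251 in young replicate 1. Its log2 fold change of 0.38 (SE 0.11) had an adjusted p of 0.0383, which went over 0.05 when any of old replicates 1, 2 and 3 or young replicates 2, 3 and 4 was left out (0.0673 to 0.0868).

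Rsad2 (viperin), which makes a chain-terminating nucleotide, split the old arrays into pairs. It stood at 601, 1025, 1017 and 633 in old replicates 1 to 4, against 684, 533, 520.3 and 549 in young replicates 1 to 4. Old replicates 2 and 3 were above every young array, while the other old arrays lay within the young range. The log2 fold change of 0.48 (SE 0.19) did not pass the test (adjusted p = 0.108), and it passed in 1 of 17 alternative analyses, that without old replicate 1 (adjusted p = 0.0475). Without old replicate 2 or old replicate 3 the log2 fold change was 0.36 (adjusted p = 0.235 and 0.242). Cmpk2, a mitochondrial nucleotide kinase and the next gene to Rsad2 on chromosome 12, reached 590.5 in old replicate 3 while the remaining old arrays read 396 to 435, against 374 to 413 in young arrays (log2 fold change 0.20, adjusted p = 0.272). Without old replicate 3 the log2 fold change of Cmpk2 was 0.07 (adjusted p = 0.517).

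Mx1 and Mx2, dynamin-like GTPases that are known to be defective in C57BL/6 mice, had log2 fold changes of 0.13 and 0.04 (adjusted p = 0.293 and 0.731), and that of Mx2 was -0.02 without young replicate 2. Ifitm3, which blocks fusion of viruses in endosomes, averaged 5821 ± 341 in old and 5327 ± 187 in young arrays (SD, n = 4 each) and did not pass the test (log2 fold change 0.13, adjusted p = 0.174). Eif2ak2 (PKR), the kinase that stops translation upon double-stranded RNA, had a log2 fold change of 0.07 (adjusted p = 0.604).

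Of the 5 genes of the oligoadenylate synthetase family, 2 rose. The active enzymes of this family make the second messenger that activates the RNA-degrading enzyme RNase L. Oasl2 read 712, 611, 866 and 711 in the old group, against 500.5, 421, 429.6 and 528 in the young group, without overlap. Its log2 fold change was 0.62 (SE 0.11, adjusted p = 0.00684). Oas1a had a log2 fold change of 0.38 (SE 0.09, adjusted p = 0.0174), with 338 as its lowest old value and 301 as its highest young value. Oas2 and Oas3, which lie next to each other on chromosome 5, had log2 fold changes of 0.07 and 0.08 (adjusted p = 0.432 and 0.416). Oasl1, which restrains translation of Irf7, had a log2 fold change of 0.29 (SE 0.10, adjusted p = 0.0778) at intensities under 150 in each array. Oasl1 passed in 3 of 16 alternatives, among them that without old replicate 1 (adjusted p = 0.0426), and had an adjusted p of 0.155 without old replicate 3 and 0.182 without young replicate 3.

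Among the 4 measured genes of ubiquitin and ubiquitin-like modification, 2 rose. Usp18, the protease that removes ISG15 from proteins and dampens the receptor, stood at 514, 395, 637 and 480.0 in old replicates 1 to 4, against 317, 284, 279.7 and 320.1 in young replicates 1 to 4. The ages did not overlap, and the spread was wider in old animals. The log2 fold change was 0.74 (SE 0.13, adjusted p = 0.00544). Trim30a, a mouse tripartite-motif protein that restrains inflammatory signalling, averaged 921 ± 95.6 in old and 585 ± 28.6 in young arrays (SD, n = 4 each), with a log2 fold change of 0.65 (SE 0.08, adjusted p = 0.000868). Trim25, the ubiquitin ligase that works with the RNA sensor RIG-I, had a log2 fold change of 0.09 (adjusted p = 0.264).

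Herc6, the mouse ligase for ISG15, depended on the probe set. The brightest probe set had a log2 fold change of 0.10 (adjusted p = 0.316), another 2 had 0.49 and 0.48 (adjusted p = 0.0135 and 0.00635), and the fourth had -0.24 (adjusted p = 0.0749). Over the list, 16 genes had more than 1 probe set of their own, and of their 27 other probe sets 10 were higher, none was lower, and 25 had the direction of the brightest probe set of the gene. The exceptions were the fourth for Herc6 and the other probe set for Cmpk2 (-0.15, adjusted p = 0.111). Probe sets beyond the brightest were not counted over all genes, so the 10 and the 25 have no background beside them. Some genes called at the brightest probe set had another that did not pass, such as Zbp1 (0.16, adjusted p = 0.199), Xaf1 (0.13, adjusted p = 0.114) and Parp14 (0.10, adjusted p = 0.338). Dimmer probe sets for Samhd1 had 0.80, which passed (adjusted p = 0.00954), and 0.11, 0.17 and 0.25, which did not (adjusted p = 0.404, 0.16 and 0.0928). Those for Ddx58 had 0.29, which passed (adjusted p = 0.0227), and 0.02, which did not (adjusted p = 0.891). Conversely, Dhx58 and Ifi35 were not called at the brightest probe set, but each had a dimmer one that passed (0.28 and 0.25, adjusted p = 0.0446 and 0.034).

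The nucleic acid sensors rose in 4 of 5 cases, and old arrays lay above young arrays for all 5. Ifi204, a mouse sensor of DNA in the nucleus and cytosol, had the highest log2 fold change of the list. Its intensities were 141, 182, 232 and 162 in the old group, against 73.2, 62.3, 70.1 and 75.8 in the young group. Each old array was therefore well above the young range, and the log2 fold change was 1.33 (SE 0.14, adjusted p = 0.000371). It belongs to a cluster of similar genes on chromosome 1, whose transcripts a probe set may share in part.

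Ifih1 (MDA5), the sensor of long double-stranded RNA, averaged 669.7 ± 78.3 in old and 472 ± 42.4 in young arrays (SD, n = 4 each), a log2 fold change of 0.50 (SE 0.10, adjusted p = 0.00842). Zbp1, a sensor of left-handed nucleic acid that can start necroptosis, had a log2 fold change of 0.54 (SE 0.12, adjusted p = 0.018). Ddx58 (RIG-I), the sensor of RNA with a 5′ triphosphate, had one of 0.30 (SE 0.07, adjusted p = 0.0223), and this call was lost without old replicate 3 (adjusted p = 0.0641). Dhx58 (LGP2), a helper of both helicases that lacks a signalling domain, did not pass the test (log2 fold change 0.19, SE 0.07, adjusted p = 0.0803), though its old arrays at 128 to 154 were all above its young arrays at 115 to 123.

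**Figure D2:**
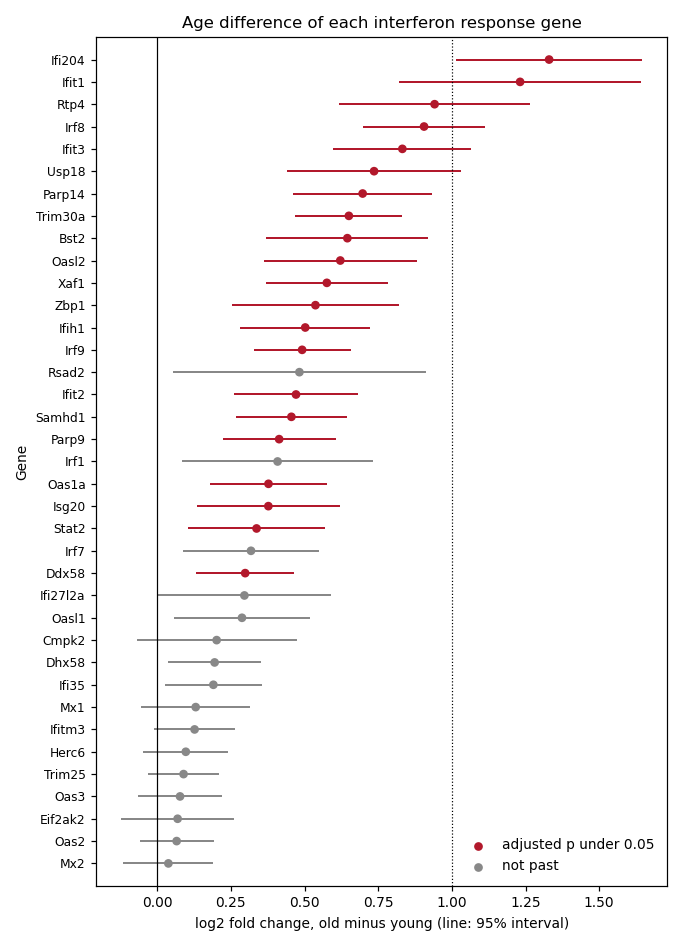
Log2 fold change, old minus young, of each interferon response gene (point) with its 95% interval (line); red marks an adjusted p under 0.05 and the dotted line a fold of 2. All 37 points lie right of 0, from 0.04 for Mx2 to 1.33 for Ifi204.

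Of the 5 transcription factors of the response, 3 rose. Irf8, which directs the development of monocytes, macrophages and dendritic cells besides its part in interferon induction, stood at 650.2, 828, 762 and 628 in old replicates 1 to 4, against 374, 399, 386 and 363 in young replicates 1 to 4. The young arrays were tightly grouped and far below every old array. Its log2 fold change was 0.91 (SE 0.09, adjusted p = 0.0003), the smallest adjusted p among the 37 genes, and its other probe set had 0.84 (adjusted p = 0.000377). Unlike most of the list, Irf8 was highest in old replicate 2.

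Irf9, a DNA-binding part of that complex, read 497, 446, 546 and 473 in old animals and 355, 328, 345 and 364 in young animals. These values did not overlap, and the log2 fold change was 0.49 (SE 0.07, adjusted p = 0.00219). Stat2, its partner, read 156, 152, 197 and 148 in old animals and 141, 131, 128 and 115 in young animals. Its old and young arrays were separated by a narrow margin, with old replicate 3 far above the rest. The log2 fold change was 0.34 (SE 0.10, adjusted p = 0.0483), and leaving out any single array of the 8 took the adjusted p to between 0.0503 and 0.114. A second, dimmer probe set for Stat2 had a log2 fold change of 0.64 (adjusted p = 0.011).

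Irf1, an activator that responds to both kinds of interferon, had intensities of 883, 1028, 1418 and 909 in the old group, against 864, 764, 708 and 806 in the young group. The ages were separated, but the lowest old array was close to the highest young one, and old replicate 3 was far above the others. Its log2 fold change of 0.41 (SE 0.14) did not pass the test (adjusted p = 0.0767), and without old replicate 3 it was 0.26 (adjusted p = 0.0956). Irf7, which drives the second wave of interferon-alpha genes, had 245, 325, 299 and 256 in old replicates 1 to 4 and 225, 204, 219 and 250.4 in young replicates 1 to 4. Here young replicate 4 exceeded old replicate 1, and the log2 fold change of 0.32 (SE 0.10) had an adjusted p of 0.0584, which was 0.0328 without old replicate 1, 0.126 without old replicate 2 and 0.139 without old replicate 3. Irf7 passed in 6 of 17 alternatives.

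Of the other 6 induced genes measured, 4 rose. Rtp4, a chaperone that carries receptors to the cell surface, stood at 1247, 1425, 1847 and 1173 in old replicates 1 to 4, against 828, 683, 642 and 779.5 in young replicates 1 to 4. The ages were clearly apart, and the log2 fold change was 0.94 (SE 0.14, adjusted p = 0.00265). Parp14, an ADP-ribosyltransferase, had a log2 fold change of 0.70 (SE 0.10, adjusted p = 0.0024), and Parp9, which works in a complex with the ubiquitin ligase DTX3L, one of 0.41 (SE 0.08, adjusted p = 0.0103). Xaf1, a binding partner of the caspase inhibitor XIAP, had one of 0.58 (SE 0.09, adjusted p = 0.00333). Ifi35 and Ifi27l2a had log2 fold changes of 0.19 and 0.30 (adjusted p = 0.0965 and 0.145), and the roles of their proteins are less settled. Ifi27l2a passed in 1 of 17 alternatives, that without old replicate 4 (log2 fold change 0.41, adjusted p = 0.0339), and had a log2 fold change of 0.20 (adjusted p = 0.31) without old replicate 3.

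**Figure D3:**
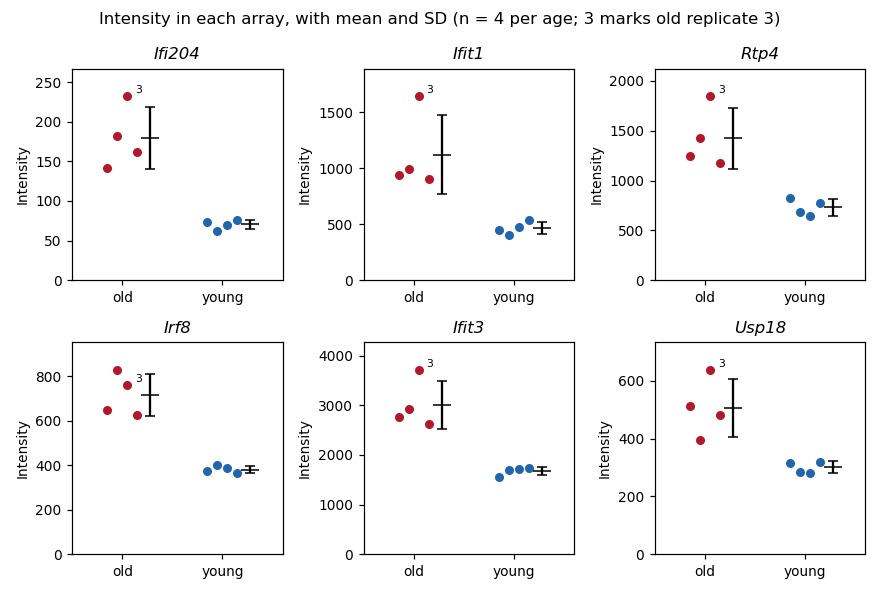
Intensity (linear, from 0) in each old and young array of the 6 interferon response genes with the largest log2 fold changes, with the mean and SD of 4 arrays beside the points and old replicate 3 marked. Old arrays lie above young arrays in all 6 panels, and old replicate 3 is the highest in all but that of Irf8.

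The spread among old arrays had a pattern of its own. Old replicate 3 was the highest old array for 30 of 37 genes (81.1%), against 21.9% of all genes, old replicate 2 for 6 genes and old replicate 4 for 1. The mean of the list, after each gene was centred on its mean over the 8 arrays, was 0.44 on the log2 scale in old replicate 3, where the remaining old arrays had 0.10 to 0.20, against -0.29 to -0.17 in young arrays. The SD of log2 values was larger in the old group than in the young group for 32 genes (86.5%), against 53.9% of all genes. It was larger for 24 genes when old replicate 3 was left out of the old group. The share of all genes was not counted for that setting, so the 24 has no background beside it. Without that array 18 genes rose, with a median log2 fold change of 0.33. Calls also became fewer among all genes, with 1475 higher in that setting against 2145 with every array. The 3 calls lost from the list were Isg20, Ddx58 and Stat2.

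Genes that make, sense and transmit interferon were compared as further lists. The counts in these and in the marker lists stand beside 11.8% of all genes higher and 9.56% lower by the same rule. Of 10 interferon genes measured, Ifng (interferon-gamma) was higher, Ifna1 and Ifna9 were lower, and the median log2 fold change was -0.07. Ifng read 24.1, 16.1, 23.0 and 22.8 in the old group, against 16.3, 16.0, 15.5 and 12.7 in the young group. These intensities are low beside a median of 132.1 over all probe sets, and old replicate 2 lay within the young range. The log2 fold change was 0.50 (SE 0.13, adjusted p = 0.0327). Ifnb1 averaged 49.0 ± 2.89 in old and 46.5 ± 2.39 in young arrays (SD, n = 4 each) and did not pass the test (log2 fold change 0.08, adjusted p = 0.438). Ifna1 and Ifna9 had log2 fold changes of -0.23 and -0.26 (adjusted p = 0.016 and 0.0391), also at intensities below 100. Detection calls were not used, so whether the probe sets of these interferon genes measured above background was not tested.

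Receptors and kinases rose in 5 of 9 cases, with a median log2 fold change of 0.21. The receptor chains for interferon-gamma, Ifngr2 and Ifngr1, had log2 fold changes of 0.62 (SE 0.06, adjusted p = 0.000306) and 0.33 (SE 0.07, adjusted p = 0.0143). Jak1 and Jak2, kinases of these receptors, had 0.32 and 0.24 (adjusted p = 0.0109 and 0.017). Ifnar2 had 0.21 (SE 0.05, adjusted p = 0.0248) and Ifnar1 0.15 (SE 0.05, adjusted p = 0.0719).

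In the pathway that induces interferon, 8 of 18 genes rose and none fell, with a median log2 fold change of 0.19. Irf5, a factor that turns on inflammatory and interferon genes below Toll-like receptors, read 201, 260.0, 259 and 242 in old animals and 131, 140.0, 131 and 126 in young animals, a log2 fold change of 0.86 (SE 0.09, adjusted p = 0.000291). Irf5 too is on the study's own list of changed genes. Tlr7, the endosomal receptor for single-stranded RNA, had a log2 fold change of 0.83 (adjusted p = 0.00048), the kinase Ikbke 0.72 (adjusted p = 8.6e-05), and Unc93b1, which brings these receptors to endosomes, 0.34 (adjusted p = 0.00284). Of 18 inhibitors, 3 rose and none fell, against 11.8% and 9.56% of all genes, with a median of 0.12. They were Nlrx1, a mitochondrial brake on the RNA sensors (0.32, adjusted p = 0.0167), and Rnaseh2b and Rnaseh2a, subunits of the enzyme that removes RNA from DNA (0.24 and 0.22, adjusted p = 0.0229 and 0.0263). Over these 4 lists 19 of 55 measured genes passed, 17 of them higher and 2 lower. Without young replicate 3 and without old replicate 3 the counts that passed were 11 and 12.

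A wider list of 75 measured interferon-induced genes outside the 37 had 39 that rose and none that fell, with a median log2 fold change of 0.35. Its largest changes were in Ifi207, a relative of Ifi204 in the same cluster (1.59, SE 0.11, adjusted p = 5.3e-05), the inflammatory caspases Casp1 (1.34, SE 0.10, adjusted p = 5.8e-05) and Casp4 (1.31, SE 0.10, adjusted p = 6.2e-05), and Slfn2, a schlafen protein that keeps T cells quiescent (1.29, SE 0.15, adjusted p = 0.000707). Old replicate 3 was the highest old array for 53.3% of these genes.

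**Figure D4:**
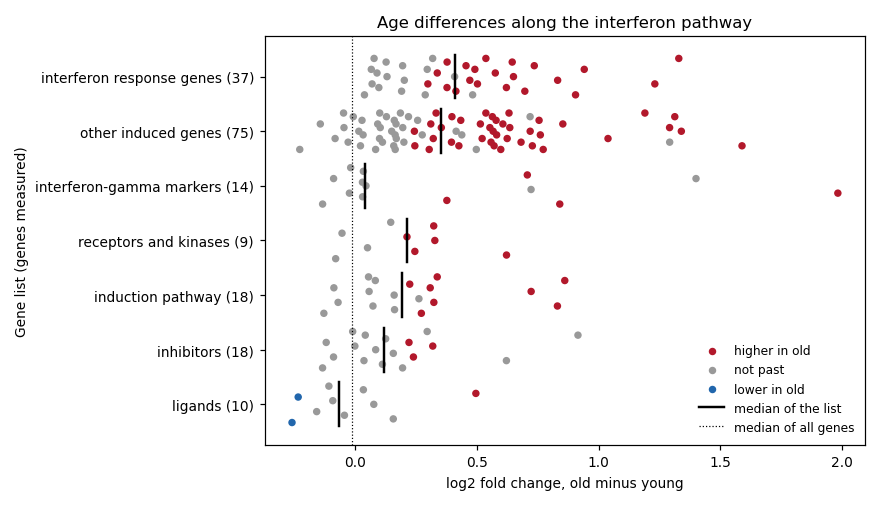
Log2 fold change, old minus young, of the interferon response genes and of 6 related lists (rows, with the number of genes measured); each point is a gene and the bar is the median of the list. The response genes and the other induced genes have medians of 0.41 and 0.35, and the ligands one of -0.07.

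Markers of macrophages, cells that express many response genes and Irf8, were also mostly higher in old arrays, but their order within an age differed from that of the list. Their mean was highest in old replicate 2 (0.63), where the list had 0.20. Among young arrays it was highest in young replicate 2 (-0.33), where the list was lowest (-0.29). Of 20, 15 rose and none fell, with a median log2 fold change of 0.97, and their summed intensities were 75071 to 80662 in old arrays, against 44654 to 50306 in young arrays. Cd68 had a log2 fold change of 1.47, Itgam 1.52, Trem2 1.44 and C1qb 1.35. In old replicate 3 the mean of the macrophage markers was 0.45, inside the 0.31 to 0.63 of the other old arrays. Plasmacytoid dendritic cells, the main producers of interferon-alpha, left no such pattern. Of their 10 measured markers only Lair1, which other leukocytes express too, rose (0.93, adjusted p = 0.00025), and none fell. The median log2 fold change was -0.12, with 2 of the 10 above 0 and 1 whose old arrays all lay below its young arrays. The sums were 3313 to 3743 in old and 3377 to 3507 in young arrays.

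T and NK cell markers rose in 6 of 15 cases and none fell (median 0.17, with 9 above 0 and the lowest at -0.29), with sums of 2765 to 3096 in old and 2372 to 2807 in young arrays, and their mean was highest in old replicate 3 (0.30, against 0.02 to 0.18 in the other old arrays). Nkg7, a granule protein of cytotoxic cells, read 104, 99.2, 166 and 91.0 in old animals and 43.4, 50.0, 38.7 and 42.4 in young animals (log2 fold change 1.36, adjusted p = 0.00109). Cd3d, Cd3g and Cd8b1 had log2 fold changes of 1.12, 1.10 and 1.07. RPE markers fell in 8 of 13 cases (median -0.19, sums of 110898 to 122230 in old and 129933 to 131232 in young arrays), and endothelial markers in 8 of 11 (median -0.36, sums of 11444 to 13838 in old and 15139 to 18466 in young arrays). The RPE list includes pigment genes, and its largest falls were in 2 of these, Tyr (-0.41) and Pmel (-0.35), followed by Rlbp1 (-0.27) and Lrat (-0.25). Which pigmented cells the fall came from was not tested. Photoreceptor markers, from retina that can stay with the tissue, varied within both ages (sums of 7252 to 19630 in old and 9721 to 20816 in young arrays) and had their lowest mean in old replicate 3. Whether each marker measured above background was not tested, since detection calls were not used. The part of these cells in the differences of the interferon response genes was not tested.

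**Figure D5:**
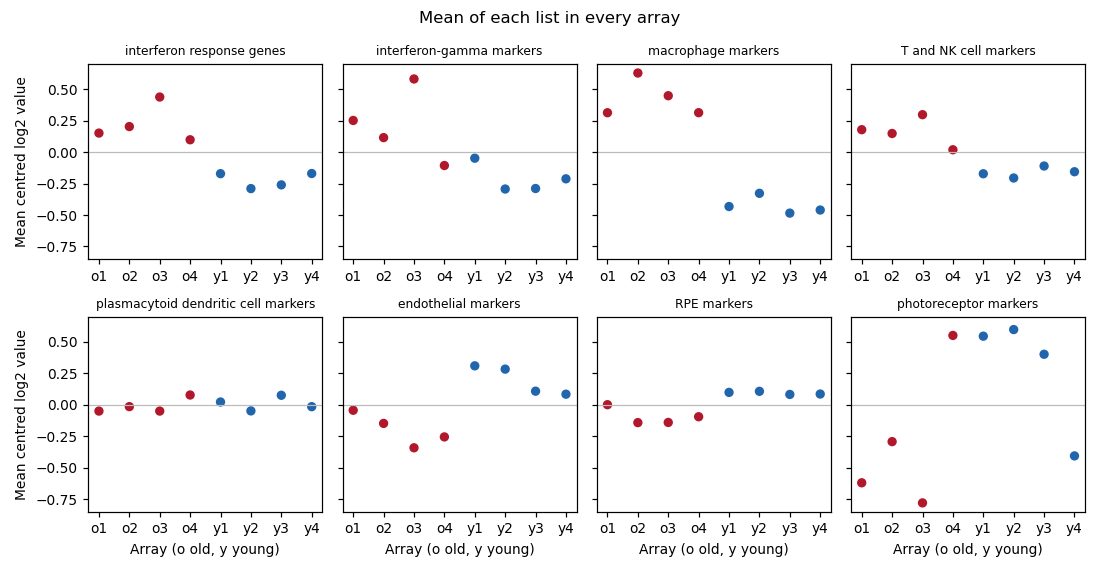
Mean of 8 gene lists in each array, on the log2 scale, after every gene was centred on its mean over 8 arrays (old in red, young in blue). Interferon response genes are at 0.44 in old replicate 3 and between 0.10 and 0.20 in the remaining old arrays, against -0.29 to -0.17 in young arrays, while macrophage markers are at 0.31 to 0.63 in old arrays with old replicate 3 at 0.45.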

How the data were processed

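The deposited table holds a linear intensity per probe set, normalized by the authors by a step that it does not name (their methods give RMA, Dchip and BRB-ArrayTools as routes). Array medians were 128.6 to 135.4, and correlations within an age were at least 0.9915. Intensities were floored at 1 and log2 was taken. Old was compared with young in R 4.3.3 with limma 3.58.1 (lmFit, eBayes, no covariate) over 45037 probe sets after 64 controls were left out, and the fit was checked on simulated data. There it found 24% of log2 changes of 0.3, 68% of those of 0.5 and 98% of those of 1. A gene that did not pass may therefore still differ by a small amount. A gene rose or fell at an adjusted p under 0.05. Detection calls were not used, and 4 arrays per age limit the precision.

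Gene names came from the platform annotation, in which 34945 probe sets name 1 gene, 932 several and 9160 none. The members, the lists and the marker genes were chosen with earlier results of these data known. All members were named, and of each list up to 4 genes with the largest change past the test, or else the 2 with the smallest p. Values in every array were given for the 6 members with the largest changes, the transcription factors and a few others chosen after their values were seen. Alternatives covered low values, normalization, variance model, replicate block, single arrays and the choice of probe set. No detail of scan or batch was found in the sources used here.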

Additional observations from a re-analysis of the deposited data

Results flagged for a closer look

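Within each age, the intensities of the 37 interferon response genes were searched for an array whose gap to its nearest neighbour took up most of the range of the 4 arrays (Dixon's test at its 95% limit). Of 74 sets of 4 arrays, 4 were found, and chance gives about 1 in 20. Ifit1 was at 1641.63 in old replicate 3, against 904.8 to 995 in the other old arrays. Stat2 reached 197.337, also in old replicate 3, while the remaining old arrays read 148 to 156. Ddx58 was at 448.208 in young replicate 2 and at 516 to 519 in the other young arrays. Oas3 was at 103.653 in young replicate 2 and at 99.3 to 99.7 in the other young arrays, a small gap at an intensity below the median of all probe sets.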

How the results depend on the processing

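The count of interferon response genes that rose was 18 to 25 under 17 alternatives (18 to 22 when an array was left out), and the count that fell was 0 in each. Of the 21 that rose, 18 did so under every alternative that gave a value, the exceptions being Isg20, Ddx58 and Stat2. The median log2 fold change was 0.33 to 0.47 (0.33 to 0.46 when an array was left out). At a fold above 2 with an adjusted p below 0.01 there were 2 genes, and 1 after a filter on probe sets at or below the median level, which removed Ifi204, and 1 with a floor of 32, where Ifit1 had an adjusted p of 0.0101. Leaving out an array gave 2 to 3, the third being Rtp4. The wider list of induced genes had 28 to 44 that rose (28 to 41 when an array was left out). For the 4 lists of ligands, receptors, inducers and inhibitors the count of 19 was 11 to 27 over all alternatives, with 11 to 20 when an array was left out, 27 with the mean of all probe sets of a gene, 24 with the probe set of largest SD and 23 with array weights. Among all genes, leaving out an array gave 1475 to 2215 higher and 953 to 1766 lower, against 2145 and 1739. The replicate numbers were not described as pairs, and after removal of the age effect same-numbered arrays had correlations of 0.0971, 0.019, 0.0218 and 0.0427, the highest for the own number in replicate 1 alone. With the replicate block 19 interferon response genes rose, and 1655 of all genes were higher and 1258 lower.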

Other observations

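Genes that answer mainly to interferon-gamma changed in part. Of 14 markers measured, 4 rose and none fell, and the median log2 fold change was 0.04. Cxcl9, a chemokine that attracts T cells, read 279, 140.4, 291 and 121 in old replicates 1 to 4, against 51.6, 60.2, 45.1 and 40.2 in young replicates 1 to 4, a log2 fold change of 1.98 (SE 0.28, adjusted p = 0.00206 by limma). No young array reached the lowest old one, with old replicates 1 and 3 the highest. The guanylate-binding proteins Gbp6, Gbp3 and Gbp7 had log2 fold changes of 0.84, 0.71 and 0.38 (adjusted p = 0.00498, 0.0076 and 0.0356), and each was highest in old replicate 3. The MHC class II genes H2-Aa, H2-Ab1 and H2-Eb1, chosen here after their values were seen, had 0.03, 0.04 and 0.03 and did not pass the test. Old replicate 3 was the highest old array for 12 of the 14 markers.

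Of 7 monocyte markers measured 3 rose and 1 fell. Fn1, a matrix protein also made by other cells, and S100a4 had log2 fold changes of 1.92 and 1.20 (adjusted p = 2.9e-05 and 0.000162), and Vcan one of -0.26 (adjusted p = 0.0116). Chil3 stood at 106 in old replicate 1, with 794 to 2172 in old replicates 2 to 4, against 95.6 to 141 in young arrays (log2 fold change 2.74, SE 0.81, adjusted p = 0.0446). Neutrophil markers set old replicate 2 apart. S100a8 stood at 7828 there, with 346 to 888 in old replicates 1, 3 and 4, against 109.8 to 220.1 in young arrays. Of 8 neutrophil markers 2 rose and 1 fell, of 8 B cell markers 1 rose (Cd22, 0.34) and 1 fell (Pax5, -0.41), and of 7 Mueller glia markers 3 fell, led by Slc1a3 (-1.41). Among all genes 11.8% were higher and 9.56% lower. A single photoreceptor marker of 10, Opn1mw, passed the test (-0.37, adjusted p = 0.0406).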
